A study of Mus musculus with 12 samples.

Results

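The genes described here encode the 8 subunits of the cytosolic chaperonin CCT, also called TRiC: Tcp1, Cct2, Cct3, Cct4, Cct5, Cct6a, Cct7 and Cct8. They were chosen by gene symbol from a list of the complex's subunits and not by a measured value, though earlier results of these data were known. All 8 were found among the 55335 genes of the count tables. Thymocytes came from 6-week-old mice kept under specific-pathogen-free conditions, 3 with a wild-type (WT) label and 3 labelled as lacking the microRNA gene pair miR-181a/b-1 (KO). RNA-seq and ribosome footprinting, which sequences the mRNA fragments that ribosomes protect from nuclease, gave 3 libraries per genotype and assay, 12 in 4 groups. Cells of all groups were strained at 70 µm and held in 0.1 mg/ml cycloheximide, which stalls elongating ribosomes. Not given in the sources used here are the strain, the sex, the cells in which the microRNA pair was deleted and which RNA-seq and footprint libraries shared a mouse.

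CCT is built of a pair of stacked rings, and each ring holds 1 copy of each of the 8 subunits. Newly made actin and tubulin enter its cavity and fold there in a cycle driven by ATP, and many proteins with WD40 repeats, among them G protein beta subunits, are also folded by it. Prefoldin, a separate complex of 6 subunits, binds actin and tubulin chains as they are made and hands them to CCT, while phosducin-like proteins act as its partners. The subunits descend from a common ancestor and are of nearly equal length. Since the finished complex contains them in equal number, production in proportion to the complex would give equal numbers of footprints per length for all 8. The question put to the data was whether footprints were spread more evenly over the subunits than RNA was.

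The 2 microRNAs whose loss defines the KO share their seed, bases 2 to 8, shown in capitals because it is what makes them 1 family. The mature 5p sequences were taken from RefSeq (GRCm38.p6), at chr1:137966468-137966490 for miR-181a-5p and chr1:137966650-137966673 for miR-181b-5p, both on the plus strand.
miR-181a-5p: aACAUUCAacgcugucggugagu
miR-181b-5p: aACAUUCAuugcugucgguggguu
The Mir181a-1 row, the check on the labels, had 166, 133 and 145 CPM in the WT footprint libraries and 0.464, 1.04 and 0.982 CPM in the KO ones. In RNA-seq it had 3.97, 3.49 and 0.964 CPM in the libraries labelled WT and 2.34, 2.37 and 5.11 CPM in those labelled KO, so these groups overlapped. Whether the counted stretch lies in the deleted part is not stated, and RNA-seq directions below are given by label.

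CPM means reads of a gene per 1000000 reads of the tested genes of the same assay, after scaling by edgeR's TMM factors. Reads in genes numbered 4479182 to 8180286 per RNA-seq library and 4069968 to 17859770 per footprint library. All 11 thymocyte markers had reads in every group, and their summed level was 13278 to 15398 CPM in RNA-seq and 23810 to 24957 CPM in footprints. The lists for B cells, myeloid cells, dendritic cells, thymic epithelium, fibroblasts with endothelium, and erythroid cells summed to between 8.48 and 339 CPM in any library. In the deposited counts, libraries of 1 assay with the same replicate number deviated from their genotype means in opposite directions: across genes the correlation of WT and KO deviations was -0.98 to -0.96 in RNA-seq and -0.99 to -0.98 in footprints. For the CCT genes, 24 of 24 gene-number combinations in RNA-seq and 20 of 24 in footprints deviated with opposite sign. The authors named the counts adjusted, and how they were adjusted is not given in the sources used here, so the spread within a group may not be that of separate mice.

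In RNA-seq, Cct2 stood above the other 7 subunit genes and those 7 lay close together. The order and the overlap of neighbours are given for levels relative to the geometric mean of the 8 genes in the same library, and CPM values are printed beside them. Cct2, the beta subunit, had 241, 252 and 278 CPM in the libraries labelled WT and 249, 241 and 212 CPM in those labelled KO. Tcp1, the alpha subunit and second in the order, had 160.4, 173 and 161 CPM under the WT label and 164, 151 and 163 CPM under the KO label. Every library thus had more Cct2 than Tcp1 reads, on average by 1.51 times, and the ranges of the 2 genes relative to the complex did not overlap. Cct8 (theta), Cct7 (eta) and Cct5 (epsilon) followed, each at 1.02 to 1.04 times below its upper neighbour and overlapping with it. Cct4 (delta) and Cct3 (gamma) could not be told apart, at a ratio of 1.01 and with Cct4 higher in 3 of 6 libraries. Cct5 exceeded Cct4 in all 6 libraries by a mean factor of 1.11, with no overlap relative to the complex, while their ranges in CPM did overlap. Cct6a, the zeta subunit, came last at 115, 134 and 123 CPM under the WT label and 123, 104 and 115 CPM under the KO label, and overlapped with Cct3.

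**Figure D1:**
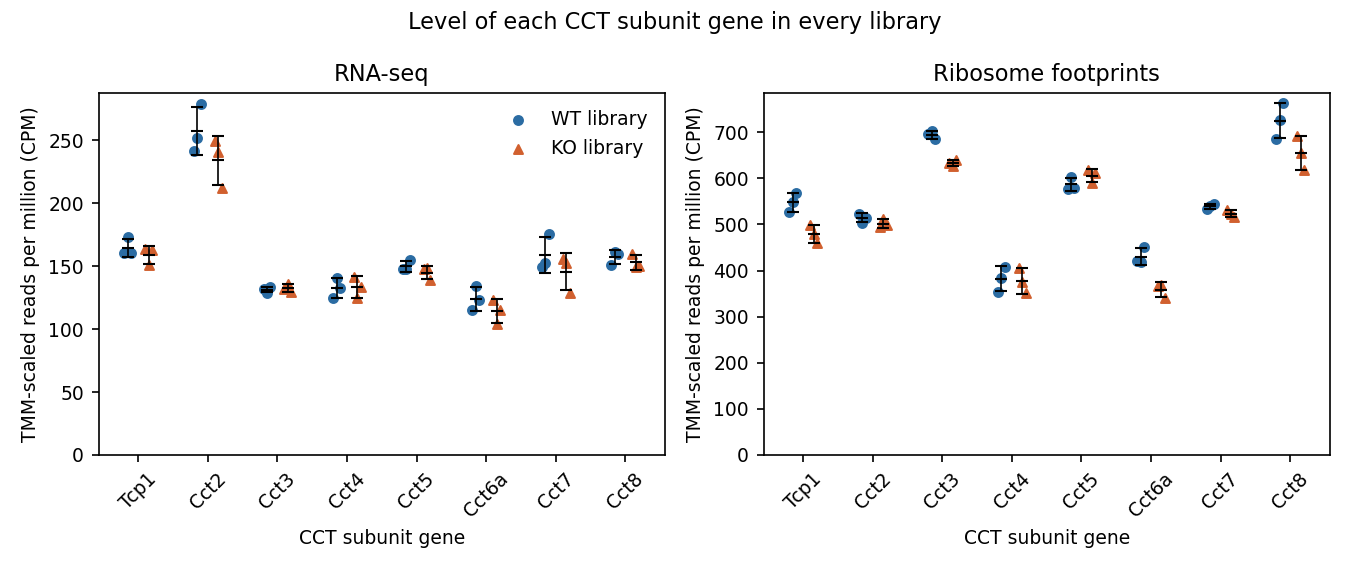
Level of each CCT subunit gene in each library, in CPM, for RNA-seq (left) and footprints (right, on its own scale); points are libraries, coloured by genotype, and reads are not divided by length. Cct2 is the highest gene in all 6 RNA-seq libraries, while Cct8 and Cct3 are the highest in footprints and Cct4 and Cct6a the lowest.

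Footprints ranked the subunits differently. Cct8 had 686, 726 and 762 CPM in WT and 692, 654 and 619 CPM in KO. Cct3 had 696, 703 and 685 CPM in WT and 634, 626 and 639 CPM in KO. These were the 2 highest genes and their ranges overlapped, with Cct8 above Cct3 in 4 of 6 libraries. Cct5 came next, with 577, 603 and 579.6 CPM in WT and 617, 589 and 611 CPM in KO, and all 6 libraries placed it below Cct3. Cct7, Tcp1 and Cct2 formed a middle group in which each overlapped with the next. Cct7 had 533, 539.6 and 545 CPM in WT and 530.4, 523 and 516 CPM in KO. Cct2, the leading gene in RNA-seq, had 524, 504 and 515 CPM in WT and 494, 512 and 499.5 CPM in KO, sixth in the order.

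Relative to the complex, the only gap between neighbours in the footprint order lay below Cct2, which exceeded Cct6a 1.29 times in all 6 libraries. In CPM, the ranges of Cct3 and Cct5 and those of Cct5 and Cct7 did not overlap either. Cct6a had 422, 418 and 451 CPM in WT and 367, 369 and 339 CPM in KO. Cct4 had 353, 385 and 407 CPM in WT and 406, 374 and 351 CPM in KO. Cct4 was the lowest gene in the 3 WT libraries and Cct6a in the 3 KO libraries, and the ratio between them over all 6 was 1.04.

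As shares of the reads of all 8 genes, where equal shares would be 12.5%, Cct2 took 19.7% ± 0.962 of the RNA reads (SD, n = 6) and 11.9% ± 0.470 of the footprints. Cct3 moved the other way, from 10.6% ± 0.520 of RNA to 15.5% ± 0.478 of footprints, and Cct8 from 12.5% ± 0.221 to 16.1% ± 0.538. Cct5 took 11.8% ± 0.314 of RNA and 14.0% ± 0.848 of footprints. For these 4 genes the 6 RNA-seq and 6 footprint libraries did not overlap. Cct4 took 10.7% ± 0.545 of RNA and 8.87% ± 0.468 of footprints, again with no overlap. Tcp1, Cct6a and Cct7 had shares that overlapped between the assays, at 13.0% and 12.01%, at 9.54% and 9.20%, and at 12.2% and 12.4%. Across the 8 genes, the mean relative level in RNA and in footprints had a Pearson r of 0.20 and a Spearman rho of 0.14, and without Cct2 these were 0.53 and 0.29 over 7 genes. The 8 points share their libraries, and no test was made of them.

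**Figure D2:**
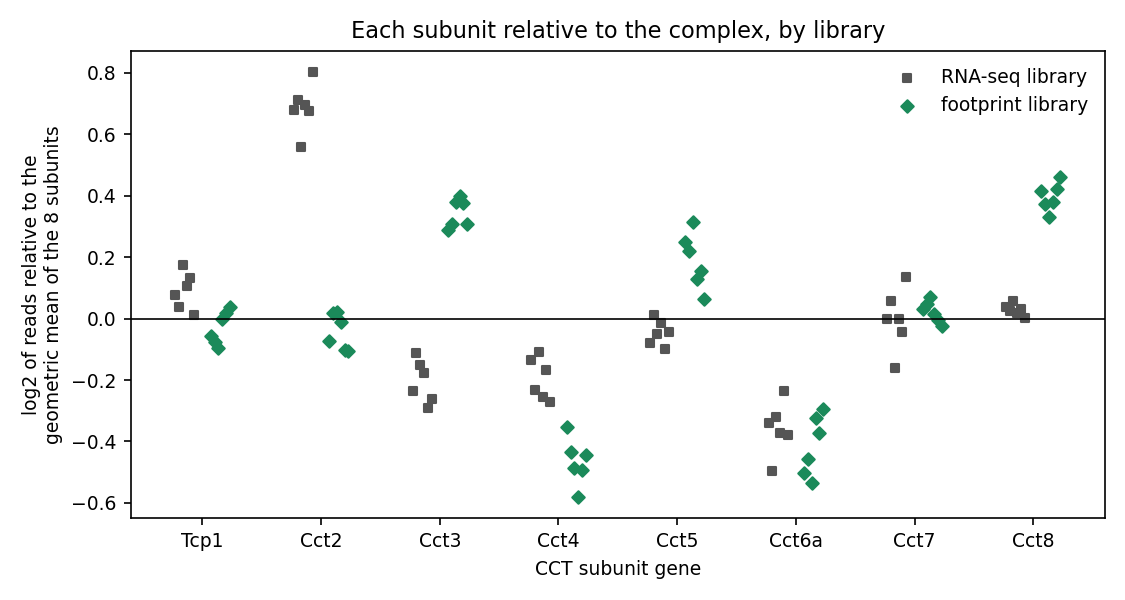
Reads of each subunit gene in each library on a log2 scale, relative to the geometric mean of the 8 subunits of that library, where 0 is the level at which all subunits are equal. Cct2 lies above 0 in RNA-seq and near 0 in footprints, and Cct3 lies below 0 in RNA-seq and above 0 in footprints.

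Footprints were not spread more evenly over the subunits than RNA was. The standard deviation over the 8 genes of log2 CPM, which would be 0 at equal levels, averaged 0.320 ± 0.034 in the RNA-seq libraries (SD, n = 6, range 0.270 to 0.368). In footprints it averaged 0.323 ± 0.020 (SD, n = 6, range 0.295 to 0.356), inside the RNA-seq range. By genotype it was 0.332 under the WT label and 0.307 under the KO label in RNA-seq, and 0.316 and 0.329 in footprints. Counting error alone would give 0.043 to 0.059 in RNA-seq and 0.015 to 0.033 in footprints, so the spread between subunits exceeded what read sampling gives in each library. The highest subunit exceeded the lowest 1.84 to 2.31 times in RNA-seq and 1.77 to 1.97 times in footprints.

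The RNA-seq spread rested on Cct2. Without it, the standard deviation over the other 7 genes was 0.171 ± 0.021 in RNA-seq (range 0.149 to 0.202) and 0.347 ± 0.023 in footprints (range 0.315 to 0.385). On those 7 genes RNA was the more even of the assays in all 6 libraries, with no overlap. Leaving out any other single subunit moved the footprint value to between 0.281 (without Cct4) and 0.348 (without Cct7). The RNA-seq value then lay between 0.306 (without Cct6a) and 0.345 (without Cct8). Footprints had the lower mean without Cct3, Cct4 (0.281 against 0.334), Cct5, Cct6a or Cct8 (0.301 against 0.345). RNA-seq had the lower mean without Tcp1 or Cct7. In each of these omissions the ranges of the assays overlapped. Cct2 was singled out after its values were seen.

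Reads could not be divided by coding or transcript length, because no table of lengths was at hand. The coding sequences differ little, but RNA-seq reads also cover untranslated ends whose lengths were not analysed here, and their part in the order of the subunits in RNA-seq was not tested.

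Against other complexes the CCT genes were close to each other. Over the 6 prefoldin genes the standard deviation was 0.957 in RNA-seq (range 0.864 to 1.02) and 0.415 in footprints (range 0.358 to 0.454). There the footprints were the more even assay in every library, unlike in CCT. Over the 7 genes Psma1 to Psma7 of the proteasome's alpha ring, whose subunits are also present in equal number, it was 0.832 in RNA-seq and 1.54 in footprints. Psma3 had few footprints in the deposited counts, 20.9 ± 0.894 CPM in WT (SD, n = 3). Prefoldin genes differ more in length among themselves than CCT genes do, and the part of length in these values was not tested. Over all genes tested the value was 2.27 in RNA-seq and 2.66 in footprints.

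**Figure D3:**
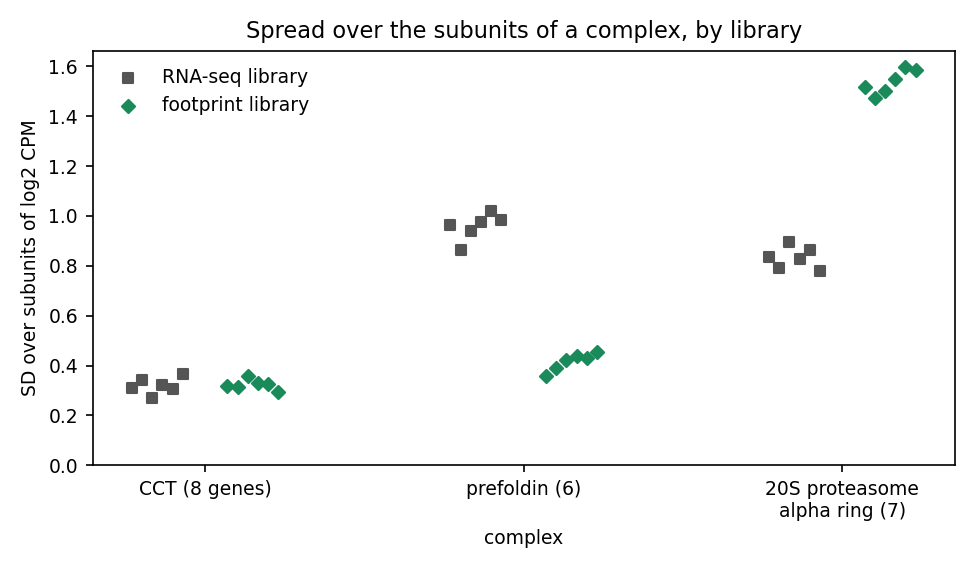
Standard deviation over the subunits of log2 CPM in each library for CCT, prefoldin and the proteasome alpha ring, starting at 0; each point is 1 library. CCT lies between 0.270 and 0.368 in both assays, prefoldin is lower in footprints than in RNA-seq, and the alpha ring is higher.

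All 8 subunits had more footprints relative to RNA than the typical gene. In edgeR's quasi-likelihood test over 11854 genes, 8 of 8 were called higher at an adjusted p (FDR, Benjamini-Hochberg) under 0.05, where 43.5% of all genes tested were called higher. On the log2 scale the median ratio was 1.93 for the 8 genes and -0.01 for all genes. Cct3 had the highest ratio, 2.49 (log2, SE 0.04, edgeR FDR 1.1e-14), above that of 97.9% of the genes tested. Cct8 followed at 2.32, Cct5 at 2.18, Cct7 at 1.97, Cct6a at 1.89, Tcp1 at 1.83 and Cct4 at 1.68. Cct2 had the lowest, 1.22 (log2, SE 0.05, edgeR FDR 3.64e-11), above that of 83.5% of the genes. On a linear scale the ratio thus ran from 2.32 for Cct2 to 5.64 for Cct3. All 8 were also called by DESeq2 (42.2% of all genes called higher) and without any 1 of the 12 libraries. The fit that blocks on the replicate number called all 8 too (34.4%). Its contrast compared the assays at replicate number 1, not averaged over the numbers, so it is not the same comparison with a block added.

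The ratio compares a gene with itself, so its coding length weighs little, but the RNA reads of a gene also cover its untranslated ends. The scale is set by the typical gene, and 27.0% to 28.5% of the counted RNA-seq reads lay in genes against 72.3% to 73.1% of those in footprints. Prefoldin genes were called higher in 6 of 6 cases, with a median of 2.06, from 0.51 for Pfdn5 to 2.80 for Pfdn6. The alpha ring was called higher in 6 of 7, all but Psma3.

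**Figure D4:**
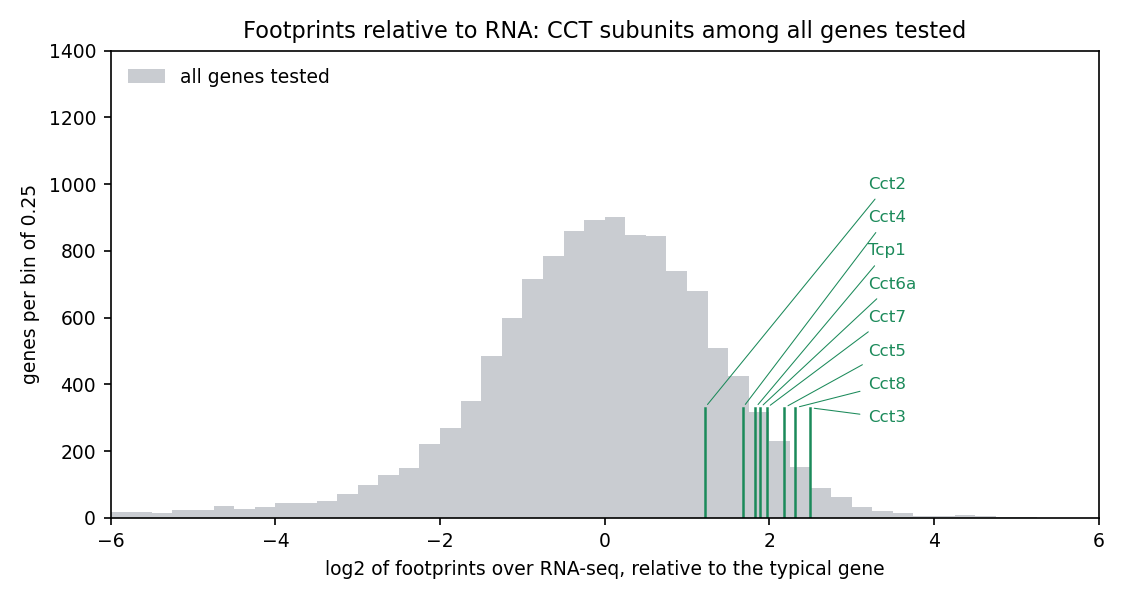
Histogram of the log2 ratio of footprints to RNA-seq, relative to the typical gene, over the genes tested (genes beyond -6 or 6 are outside the axis), with lines at the 8 CCT subunit genes. All 8 lie to the right of 0, from Cct2 at 1.22 to Cct3 at 2.49.

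In RNA-seq none of the 8 subunits changed by the test between the libraries labelled KO and WT. edgeR called 0 of 8, where 6.91% of the 13652 genes tested were called, with 0 of 8 at an unadjusted p under 0.05 (23.8% of all genes) and 0 of 8 called by DESeq2 (3.9% of all genes). Log2 fold changes ran from -0.14 (SE 0.09, edgeR FDR 0.389) for Cct2 to 0.01 (SE 0.05, edgeR FDR 0.905) for Cct3, with a median of -0.05 against 0.00 for all genes. Cct7 had 149, 153 and 175 CPM under the WT label and 155, 153 and 129 CPM under the KO label, a log2 difference of -0.13 (SE 0.10). Cct4 had 125, 140.5 and 132 CPM under the WT label and 142, 125 and 134 CPM under the KO label. In all 8 genes the groups overlapped, where KO lay wholly below WT in 15.4% and wholly above in 15.5% of all genes tested. The 8 summed to 1277 ± 49.4 CPM under the WT label and 1217 ± 51.2 CPM under the KO label (SD, n = 3).

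In footprints Cct6a, Tcp1 and Cct3 were called lower in KO by the fit without a block on the replicate number. edgeR called 3 of 8 lower and 0 of 8 higher, where 8.34% of the 13509 genes tested were called lower and 9.25% higher. Cct6a, whose 3 KO libraries given above all lay below its 3 WT libraries, fell by 0.26 on the log2 scale (SE 0.05, edgeR FDR 0.0166), or 16.6%. Tcp1 had 528, 548 and 569 CPM in WT and 499.6, 480.2 and 461 CPM in KO. With no overlap between the groups, it fell by 0.19 on the log2 scale (SE 0.05, edgeR FDR 0.0363), or 12.3%. Cct3 fell by 0.13 on the log2 scale (SE 0.03, edgeR FDR 0.0317), or 8.9%, and its groups did not overlap either. In the authors' deposited table the adjusted p-values were 0.00124 for Cct6a, 0.019 for Tcp1 and 0.0422 for Cct3, and the same 3 genes were marked as significantly down.

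These 3 calls differed in how they held. Libraries of the same number deviated in opposite directions, so SEs and p-values of KO against WT without the block may be too small. With the block the SE was 0.087 for Cct6a, 0.086 for Tcp1 and 0.082 for Cct3. When the fit blocked on the replicate number, edgeR called 0 of 8 (FDR 0.163 for Cct6a, 0.312 for Tcp1 and 0.471 for Cct3), where 3.02% of all genes were called, and 1 of 8, Cct6a, had an unadjusted p under 0.05. DESeq2, which called 4.09% of all genes lower, kept Cct6a (adjusted p = 0.00569) and not Tcp1 (0.0568) or Cct3 (0.175). Cct6a stayed called without any 1 of the 6 libraries (edgeR FDR 0.0395 to 0.0499). Tcp1 stayed called without WT replicate 1 (FDR 0.0491) and was lost without any 1 of the other 5 (FDR up to 0.0996), and Cct3 was lost whichever library was left out (FDR 0.0721 to 0.124).

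The other 5 subunits did not pass the test in footprints. Cct8 had a log2 difference of -0.14 (SE 0.06, edgeR FDR 0.138), a size like that of Cct3 with a wider spread between libraries, and its groups overlapped. Cct7 had -0.04 (edgeR FDR 0.392), with all KO libraries just below all WT libraries. Cct2 had -0.04 (edgeR FDR 0.530), Cct4 had -0.01 (edgeR FDR 0.917) and Cct5 had 0.05 (edgeR FDR 0.437), the one positive value. In 4 of 8 genes, Tcp1, Cct3, Cct6a and Cct7, the KO libraries all lay below the WT libraries, as they did in 19.6% of all genes tested, and in 0 of 8 they all lay above, against 18.5%. The median over the 8 was -0.09 against -0.01 for all genes, and 7 of 8 values were below 0 against 51.6% of all genes.

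Summed over the 8 genes, footprints were 4320 to 4514 CPM in WT and 4036 to 4239 CPM in KO, with no overlap. Within that sum the share of Cct6a was 9.44% to 9.999% in WT and 8.41% to 8.93% in KO, and the share of Cct5 was 12.8% to 13.6% in WT and 14.3% to 15.1% in KO. These shares were not tested. In bulk thymocytes, fewer cells of a kind that is rich in a transcript and less of that transcript per cell cannot be told apart. Some cell markers were also called between the genotypes in footprints, where 9.25% of all genes tested were called higher and 8.34% lower. Of 11 thymocyte markers, edgeR called 2 higher in KO, Cd4 (1953 ± 123 CPM in WT, 2902 ± 174 in KO, SD, n = 3) and Themis, and 3 lower, Rag1 (9951 ± 361 and 8068 ± 291 CPM), Ptcra (43.3 ± 3.27 and 33.6 ± 2.64 CPM) and Lck, while their sum overlapped between the genotypes. The dendritic cell list summed to 36.8 to 45.1 CPM in WT and 24.5 to 32.6 CPM in KO, with 2 of 3 genes called lower, Flt3 and Siglech. The thymic epithelium list summed to 75.5 to 82.3 CPM in WT and 59.8 to 70.5 CPM in KO, with Epcam (38.3 ± 4.62 and 26.2 ± 3.73 CPM) called lower and the other 4 genes overlapping. S100a8 of the myeloid list (68.9 ± 16.8 and 135 ± 33.1 CPM), Cd79b of the B cell list and Pecam1 of the endothelium list were called higher, and Alas2 of the erythroid list lower. With the replicate block, which called 3.02% of all genes, 1 of 11 thymocyte markers was called higher and 0 lower. In that fit 1 of 3 dendritic cell genes was called lower, and 1 gene each of the myeloid and B cell lists higher. The epithelium, endothelium and erythroid lists then had 0 calls. The part of these markers in the CCT values was not tested.

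Footprints beyond RNA gave no call among the subunits. In the edgeR test of the interaction of genotype and assay, 0 of 8 were called, where 0.211% of the 11854 genes tested were, and DESeq2 called 0 of 8 against 0.394%. The interaction ran from -0.15 for Cct3 (log2, SE 0.07, edgeR FDR 0.336) to 0.10 for Cct2 (log2, SE 0.10, edgeR FDR 0.685). Cct3 was the 1 gene of 8 at an unadjusted edgeR p under 0.05, at 0.0417, where 14% of all genes were. Cct6a had -0.15 (SE 0.10) and Tcp1 had -0.14 (SE 0.08). The falls of Cct6a, Tcp1 and Cct3 in footprints were therefore not shown to differ from their values in RNA-seq.

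**Figure D5:**
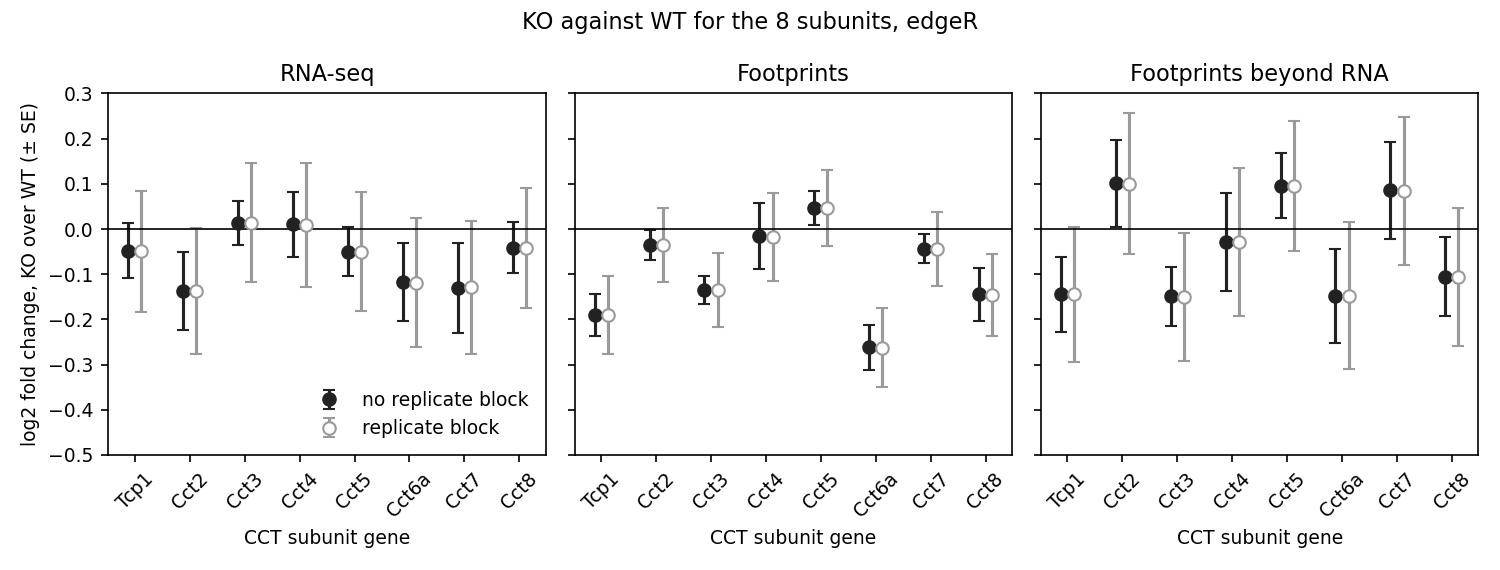
Log2 fold change of KO over WT for each CCT subunit gene in RNA-seq, in footprints and in footprints beyond RNA (the interaction), from edgeR; bars are 1 standard error, filled points without and open points with a block for the replicate number. In footprints Cct6a is lowest at -0.26 and Cct5 highest at 0.05, and the bars are longer with the block.

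Among the genes that work with CCT, prefoldin had 2 of 6 genes called lower in KO footprints and 0 called higher, against 8.34% and 9.25% of all genes tested. Vbp1, the VHL-binding prefoldin subunit, measured 69.2 ± 8.29 CPM in the WT libraries and 48.6 ± 6.39 CPM in the KO libraries (SD, n = 3), a log2 difference of -0.47 (SE 0.11, edgeR FDR 0.0351). Pfdn6 had 93.2 ± 4.45 and 78.8 ± 3.90 CPM, a log2 difference of -0.23 (SE 0.05, edgeR FDR 0.0316). All 6 prefoldin values were below 0, against 51.6% of all genes, with a median of -0.09, as for the CCT genes. With the replicate block the adjusted p was 0.082 for Vbp1 and 0.236 for Pfdn6. In RNA-seq edgeR called 0 of 6, against 6.91% of all genes, and DESeq2 called none of them. Pfdn5 was the 1 gene at an unadjusted edgeR p under 0.05 (log2 fold change -0.23, FDR 0.101), against 23.8% of all genes.

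The phosducin-like partners Pdcl, Pdcl3 and Txndc9 had 0 of 3 called in either assay, by edgeR or DESeq2, and 0 of 3 at an unadjusted p under 0.05. Of all genes tested, edgeR called 9.25% higher and 8.34% lower in footprints and 6.91% in RNA-seq. With so few genes, 0 of 3 does not set them apart from all genes. Their footprint values lay between -0.01 and 0.02. Pdcl2 had 0 reads in all 12 libraries and was not tested.

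Of 26 genes for proteins folded by CCT, 25 were tested in footprints, where 2 were called higher and 2 lower, with a median of 0.03. These shares are close to those of all genes, 9.25% higher and 8.34% lower, so the 4 genes are given as single values. Actb, the cytoplasmic beta-actin, measured 11914 ± 337 CPM in the WT libraries and 13653 ± 380.0 CPM in the KO libraries (SD, n = 3), a log2 difference of 0.20 (SE 0.04, edgeR FDR 0.0244, with the block 0.30). Gnb4, a G protein beta subunit, rose from 25.7 ± 1.21 to 88.3 ± 4.18 CPM in footprints and from 39.0 ± 0.305 to 162 ± 0.887 CPM in RNA-seq, and it was called in both assays with and without the block. Tubb3, a beta-tubulin, had a log2 fold change of -0.34 (edgeR FDR 0.0316, with the block 0.380) and Tubg1, a gamma-tubulin of microtubule-organizing centres, had -0.23 (edgeR FDR 0.0468, with the block 0.290). In RNA-seq, where 6.91% of all genes tested were called, Gnb4 was the 1 gene called of the 24 tested. In the alpha ring, Psma2 had a log2 difference of -0.19 in footprints (edgeR FDR 0.02, with the block 0.305) and Psma3 of 0.36 (edgeR FDR 0.0104, with the block 0.186).

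Of the footprint calls in these lists, that of Gnb4 was kept whichever of the 6 libraries was left out, that of Psma3 in 5 of 6 omissions, that of Pfdn6 in 2 and those of Vbp1, Actb, Tubg1 and Psma2 in 1 each, while that of Tubb3 was kept in 0 of 6. DESeq2 called Gnb4, Vbp1 and Actb of them, and its adjusted p was 0.0853 for Pfdn6, 0.141 for Tubg1, 0.333 for Tubb3, 0.0909 for Psma2 and 0.0541 for Psma3. It also called 2 client genes that edgeR did not. Tuba1c, an alpha-tubulin, had a log2 difference of -0.54 in edgeR (FDR 0.0604, DESeq2 adjusted p = 0.0271). Ccne1, the cell cycle protein cyclin E1, named after its values were seen, had -0.51 (edgeR FDR 0.0545, DESeq2 adjusted p = 0.00625). The authors' deposited table marks both as significantly down in footprints.

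Other chaperonin genes were not called in footprints, 0 of 5 by edgeR, where 9.25% of all genes were called higher and 8.34% lower. There were also 0 of 5 at an unadjusted p under 0.05 and 0 of 5 called by DESeq2. With so few genes, 0 of 5 does not set them apart from all genes. In RNA-seq Bbs12, which belongs to a group of chaperonin-like proteins that act with CCT in assembling the BBSome, had 5.01 ± 0.623 CPM under the WT label and 8.54 ± 1.06 CPM under the KO label (SD, n = 3). Its log2 fold change was 0.79 (SE 0.14, edgeR FDR 0.0287), and the adjusted p was 0.313 with the block and 0.161 in DESeq2. It was kept in 1 of 6 omissions of a library. Cct6b, a paralogue of Cct6a known from testis, had 32 reads in all 12 libraries together, and Cct8l1 had 17, too few to be tested.

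Copies of the subunit genes drew few reads. RefSeq names 16 pseudogenes for them, of which 10 had a row in the count tables, with 32 RNA-seq reads and 550 footprints in all against 49694 and 327905 of the 8 genes. The largest share was that of the Cct3 copies, at 0.513% of the footprints of Cct3. Reads that aligned to several places had been set apart by the authors' counting, so footprints lost to copies could not be counted. In RefSeq, Tcp1 (chromosome 17) overlaps Mrpl18, Acat3, Snora20 and another snoRNA gene, Cct6a (chromosome 5) overlaps Psph and the snoRNA genes Gm23245 and Snora15, Cct7 (chromosome 6) overlaps Pradc1 and Cct8 (chromosome 16) overlaps Usp16. The strand setting of the counting is not given in the sources used here, so reads of these 4 genes and of their neighbours may be mixed or set apart, while Cct2, Cct3, Cct4 and Cct5 have no such neighbour in RefSeq. Gm23245 itself had 1307 RNA-seq reads and 605 footprints, against 4782 and 30612 of Cct6a.

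Across libraries the subunits did not follow 1 profile. Against the mean of the 8, correlated within each assay over its 6 libraries and averaged over both assays, Cct8 had 0.97, Cct7 0.91, Cct6a 0.86, Tcp1 0.76, Cct2 0.63, Cct4 0.58, Cct3 0.33 and Cct5 0.13. Cct5 ran against the mean of the 8 in footprints, with a correlation of -0.48. Each subunit was itself part of the mean it was compared with, unlike the other genes that follow. Of 4446 other genes compared at this level, those most like the mean of the 8 were Neu3 (0.99), Sf3b3 (0.98), Exosc2 (0.98), Iars (0.98) and Arhgap19 (0.98). The 6 libraries of an assay share their genotypes and the opposite deviations described above, so these are descriptions with no test.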

How the data were processed

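The authors deposited read counts for 55335 Ensembl genes, in a table for each assay, and named them adjusted. They used FastQC, Bowtie2 2.5.1, STAR 2.7.10a, HTSeq 2.0.3 and DESeq2 1.40.2, per the submitters' processing notes, and neither build, annotation nor strand setting is given there. The authors' deposited tables of KO against WT were used for symbols and their adjusted p-values, and 12 columns of per-library values in them were not used. The 5 rows for reads outside genes, ambiguous reads and the like stayed out of library sizes and tests.

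Samples were grouped by their titles. Each assay was fitted over all genes with edgeR 4.0.16 in R 4.3.3 (TMM, filterByExpr with a minimum count of 10, quasi-likelihood test, Benjamini-Hochberg adjustment, threshold 0.05), and footprints beyond RNA as the interaction of genotype and assay. Footprints were set against RNA with TMM over all 12 libraries. The SE is the log2 fold change divided by the square root of F. Correlations of deviations used log2 of CPM plus 0.5 for genes of average log2 CPM of at least 3, and likeness to the complex used genes of at least 5. The alternatives tried were DESeq2 1.42.0, RLE size factors, no filter, a block for the replicate number, a joint fit, omission of each library and omission of each subunit. The fits were also run on simulated counts with known changes, drawn independently for each library. That simulation lacked the opposite deviations of same-numbered libraries, so it does not show whether the p-values hold for these data.

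Spread and order were planned per kb of coding length; no lengths were at hand, so undivided reads were used. The members and lists were chosen with earlier results of these data known. Named are all 8 subunits, each called gene of the lists, at most 2 uncalled genes per list, and the 5 genes most like the complex. Nothing says that the libraries of a group came from separate mice beyond the 3 mice per genotype, and p-values measure the spread between these libraries.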

Additional observations from a re-analysis of the deposited data

How the results depend on the processing

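All 8 footprint-to-RNA calls held under each alternative run, and the RNA-seq and translation tests called none of the 8 under any of them. The 3 footprint calls held with RLE size factors; Tcp1 (adjusted p = 0.0531) and Cct3 (0.163) were lost without the filter on low counts, and Cct3 (0.0581) in the joint fit. Deviations of same-numbered libraries correlated negatively, and the main fit treats these libraries as independent. Its SEs and p-values of KO against WT may therefore be too small. The replicate block was run as an alternative. Over all genes, calls in RNA-seq were 943, against 532 with DESeq2, 110 with the replicate block, 1557 in the joint fit and 215 to 323 with 1 library left out. In footprints they were 2376, against 1236 with DESeq2, 408 with the block and 1035 to 1554 with 1 library left out. For translation they were 25, against 44 with DESeq2, 272 without the filter, 2 with the block within each assay and 6 to 24 with 1 library left out. For footprints against RNA they were 10374, against 8100 with the block, whose contrast there compared the assays at replicate number 1. Without the filter they were 16899, when more genes were tested. The spread over the subunits was 0.320 in RNA-seq, 0.171 without Cct2 and 0.306 to 0.345 without any 1 other subunit. In footprints it was 0.323. With 1 subunit left out it was there 0.348 (Tcp1), 0.347 (Cct2), 0.314 (Cct3), 0.281 (Cct4), 0.337 (Cct5), 0.295 (Cct6a), 0.348 (Cct7) and 0.301 (Cct8). With 1 library left out, uncalled values changed sign for Cct3 in RNA-seq (-0.0068 to 0.024), Cct4 in RNA-seq (-0.038 to 0.053), in footprints (-0.069 to 0.036) and in translation (-0.083 to 0.018), and Cct7 in translation (-0.0024 to 0.13). Alternatives with transcript or coding length were not run.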
